A study of Mus with 7 samples.

Results

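Lipopolysaccharide (LPS) was left on DHA-treated macrophages for 1 h or 4 h, and the library of the earlier hour, DHA.LPS.1, is compared here with that of the later hour, DHA.LPS.4, to show which genes declined, persisted or started between them. After the limits on barcodes used for this series (more than 20000 UMIs, at least 2000 genes and under 20% of UMIs from mitochondrial genes), 795 cells of DHA.LPS.1 and 692 cells of DHA.LPS.4 remained, which is 1487 of the 11640 such cells in all 7 libraries. A UMI is a tag that marks 1 captured RNA molecule. For each gene the UMIs of all kept cells of a library were added up and expressed as CPM, which scales each library to the same total, over 31815789 UMIs at 1 h and 22045775 UMIs at 4 h.

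The cells were FLMs, self-renewing macrophages grown from the fetal liver of wild-type C57BL/6J mice in 30 ng/mL GM-CSF, the growth factor that every group received. Each library came from culture in 0.25% FBS, for 24 h, with 25 µM docosahexaenoic acid (DHA), an omega-3 fatty acid, carried on 8.3 µM BSA. The fatty acid medium was then taken off and 20 ng/mL LPS added, so that, per the labels, DHA was supplied before LPS and not with it. DHA.LPS.0, collected after the fatty acid and without LPS, serves as the starting level, and the Veh libraries (BSA alone, same hours) are given beside the DHA values. No library was held for 1 h or 4 h in changed medium without LPS. Time in LPS, the change of medium and the time since DHA therefore cannot be told apart. FLMs are cultured cells held in GM-CSF and not a tissue sample, and each condition was 1 library. No difference below therefore has a replicate check, no test is given, and the intervals are 95% exact binomial intervals that cover counting error only.

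LPS is a bacterial cell wall component that macrophages sense through TLR4, held at the surface with MD-2 (Ly96) and CD14. Signalling through MyD88 activates NF-κB and MAP kinases. These switch on immediate-early genes, whose short-lived mRNAs encode transcription factors and feedback inhibitors, and later the cytokine genes that need new chromatin changes or new protein. Signalling through TRIF and IRF3 leads to interferon β, which in turn induces a set of antiviral genes.

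Of the barcodes called as cells by the authors, 18.1% of 4395 passed the limits in DHA.LPS.1 and 12.1% of 5722 in DHA.LPS.4, against 40.6% to 55.6% in the Veh libraries. A mitochondrial share of 20% or more was found in 74.4% and 80.04% of the barcodes of the DHA pair. Median depth fell from 37202 to 29631 UMIs per cell, and no kept barcode occurred in both libraries. Macrophage markers such as Spi1, Itgam, Fcer1g and Cd68 were present in 88.7% or more of the cells of both hours at 20000 UMIs per cell. The 11 macrophage markers summed to 6165 CPM at 1 h and 6863 CPM at 4 h, although Mertk had at most 1 UMI and Fcgr1 fell from 51.5 to 11.2 CPM. Bst2 held most of the 44.3 to 68.7 CPM of the dendritic cell list. The lists for neutrophil, mast cell, erythroid, hepatocyte, stromal or endothelial and lymphoid markers each summed to at most 7.53 CPM, and S100a9, Ly6g, Alb and Cd3e had no UMI at 0, 1 or 4 h. No other cell type was identified in which a gene could be taken as absent, so the share of cells with a UMI from free RNA could not be measured.

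A gene was considered if its UMIs were found in 25% or more of the cells of either hour, which left 7847 genes. A gene could pass through the hour in which it was high and fail in the other. Counts and medians of gene lists are therefore partly set by this limit. A considered gene was counted as lower or higher at 4 h if it differed by 2-fold or more both in CPM and after TMM scaling, a correction for unequal RNA composition. The median gene stood at a log2 ratio (4 h over 1 h) of −0.18 in CPM and of 0.01 after TMM scaling, a shift of 0.19. By this rule 525 genes were lower (6.69%) and 227 were higher (2.89%), so that 30.2% of the changes were upward. The share depended on the scaling, with 777 lower and 227 higher genes in CPM alone (22.6% upward) and 525 lower and 329 higher after TMM alone (38.5% upward). With all barcodes kept, 130 genes were lower and 144 higher among 3936 considered. The part of the low share of kept barcodes in the results was not tested. At the limit, Lcorl (58.2 to 25.5 CPM) was just inside the lower set and Ccnf (15.3 to 6.71 CPM) just outside it, while Slc4a2 (7.48 to 14.97 CPM) was just inside the higher set and Gramd1a (23.4 to 46.8 CPM) just outside.

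With DHA.LPS.0 as the starting level, 52 genes (0.663% of those considered) had risen at least 2-fold in the first hour and then dropped at least 2-fold by 4 h, and are called declining. A further 77 genes (0.981%) persisted, being at least 2-fold above the starting level at both hours and within 2-fold of each other. Another 30 genes (0.382%) rose at both steps, and 159 genes (2.03%) started, with less than 2-fold gain at 1 h and a rise of at least 2-fold thereafter. The other 473 lower genes had gained less than 2-fold at 1 h, and 38 higher genes stood outside the starting and rising classes. These classes were made from the same values as the figures given for them, which are therefore a description. The median declining gene went from 8.48 to 107 and back to 20.3 CPM, and the median persisting gene from 20.0 to 69.2 and 85.7 CPM. The median gene that kept rising had 4.35, 25.1 and 190 CPM at 0, 1 and 4 h, and the median starting gene 23.0, 26.9 and 74.9 CPM. Of the 52 declining genes, 10 were at 4 h below their starting level and 18 were still at least 2-fold above it.

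**Figure D1:**
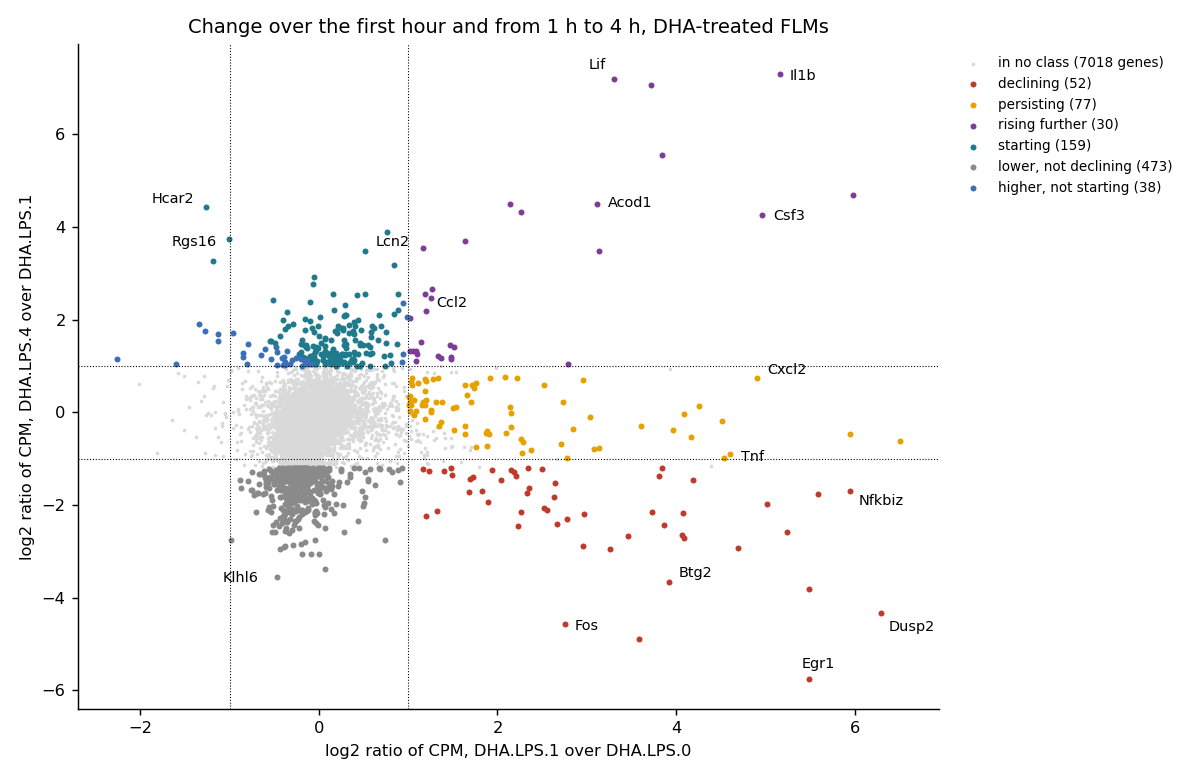
Each point is 1 of the 7847 genes considered, with the log2 ratio of CPM at 1 h over 0 h on the horizontal axis and at 4 h over 1 h on the vertical axis, coloured by class. Dotted lines mark 2-fold in CPM; the 52 declining genes lie at lower right and the 159 starting genes at upper centre.

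Of 19 immediate-early transcription factors considered, 12 were lower at 4 h (63.2%, against 6.69% of all genes considered) and none higher. Their median log2 ratio was −1.37 against −0.18 over all genes considered, and 10 of the 12 were among the 52 declining genes. Egr1, Egr2, Egr3 and Fos passed the limit on cells only through the 1 h library, where they were high. Before thinning they had a UMI in at most 12.4% of cells at 4 h, so the count and median are partly set by the limit. Egr1, a zinc finger factor induced by serum response factor and ERK, climbed from 12.5 to 562 CPM in the first hour and was back at 10.5 CPM at 4 h. Its log2 ratio from 1 h to 4 h was −5.74 (−5.94 to −5.56), and a UMI of it was found in 96.0% of cells at 1 h and 9.39% at 4 h when each cell was thinned to 20000 UMIs. The decline was thus a loss from nearly every cell, and the few UMIs left were uneven, with 54.4% of them in the top 1% of cells.

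Egr3 followed the same course with 4.03, 48.3 and 1.63 CPM at 0, 1 and 4 h, and Egr2 with 1.06, 47.4 and 3.40 CPM. Fos, the AP-1 subunit that pairs with Jun proteins, had 21.7, 147 and 6.17 CPM, and so ended below its starting level. Junb, Jun and Fosl2, also AP-1 genes, fell by a smaller factor, and Jun came back close to its starting level. Junb went from 97.9 to 1426 and 265 CPM, Jun from 64.0 to 406 and 76.6 CPM, and Fosl2 from 9.54 to 43.4 and 17.9 CPM. A Junb UMI was present in 74.2% of cells at 0 h and 94.1% at 4 h, whereas a Fos UMI was present in 28.2% and 8.96%. The AP-1 family therefore did not move together, since Fosl1 (11.8, 103 and 61.0 CPM) persisted and Jund (89.7, 183 and 138 CPM) was in no class. Atf3, a bZIP repressor of inflammatory genes, was the family member with more mRNA at 4 h, at 62.1, 143 and 261 CPM, which passed 2-fold after TMM scaling but not in CPM.

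Chka, choline kinase α, lies outside the list and was among the 10 declining genes with the largest ratio, with 21.7, 208 and 27.0 CPM. Btg2, an antiproliferative cofactor of mRNA deadenylation, had 18.6, 283 and 22.3 CPM, and Ier2 had 41.0, 688 and 109 CPM. Ier3 was far more abundant, with 158, 3326 and 1496 CPM, and missed the class because its log2 ratio of −1.15 became −0.96 after TMM scaling. Csrnp1, a nuclear factor induced by AP-1 signals, dropped from 54.8 to 7.44 CPM, a log2 ratio of −2.88 (−3.12 to −2.65) in DHA against −1.44 in Veh. Klf2 and Klf4, factors that restrain macrophage activation, were lower at 4 h without a 2-fold rise at 1 h. Klf4 had 70.2, 54.2 and 16.3 CPM, and Klf2 had 64.5, 69.0 and 26.8 CPM, compared with 18.6, 26.9 and 6.62 CPM of Klf2 in Veh. Fosb (8.93 to 0.227 CPM) and Nr4a1 (6.69 to 0.544 CPM) were in too few cells to be considered.

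**Figure D2:**
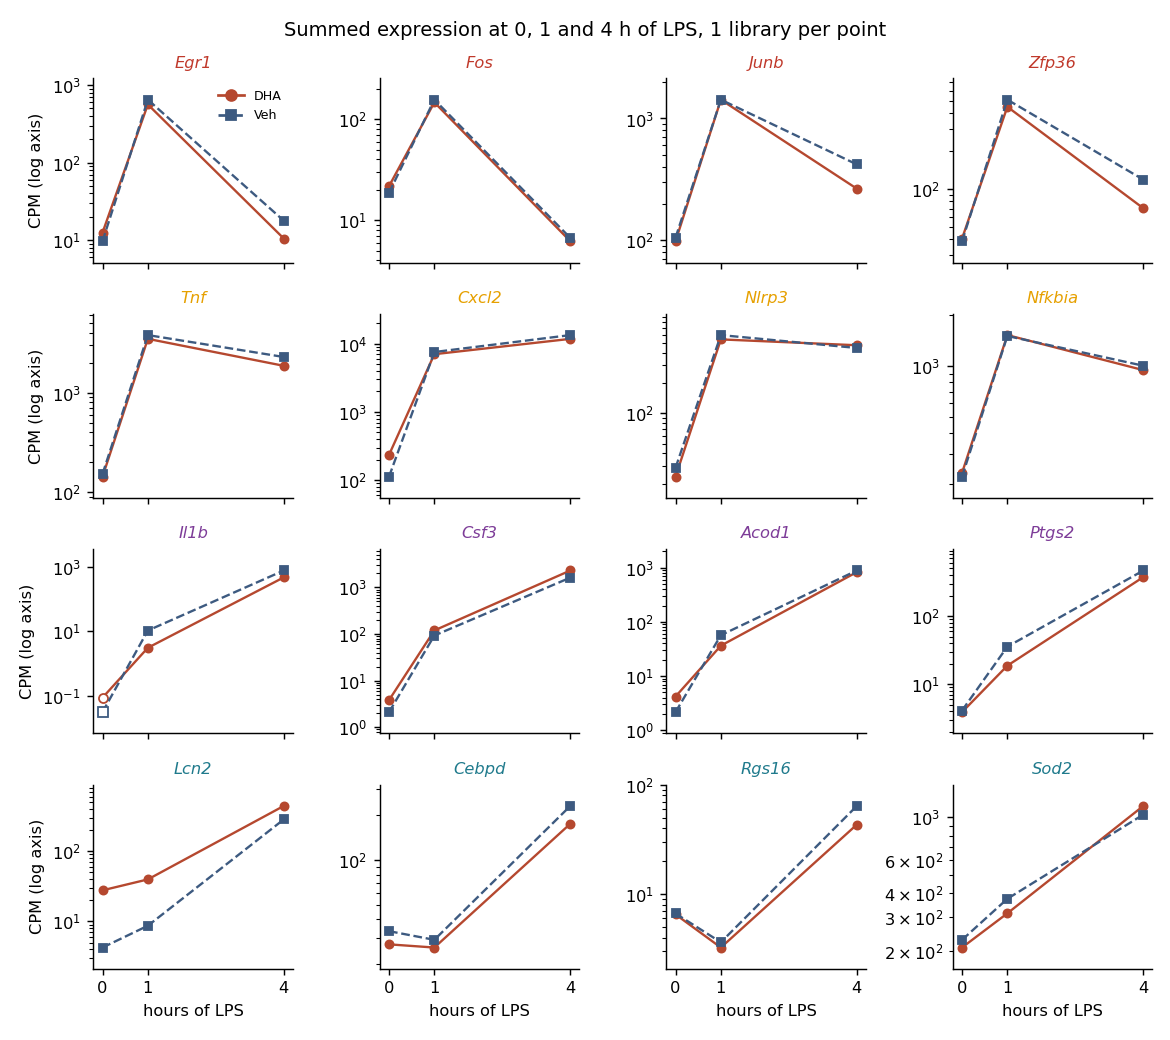
CPM of 16 genes at 0, 1 and 4 h of LPS on a log axis, with DHA as circles and solid lines, Veh as squares and dashed lines, 1 library per point, and open symbols for a library with no UMI, drawn at 3 UMIs. Rows from top to bottom show declining, persisting, rising and starting genes; Egr1 returns to its starting level while Il1b climbs from 0 UMIs to 485 CPM in DHA.

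Among 8 dual-specificity phosphatases considered, which remove phosphate from MAP kinases and so limit their signal, 4 were lower and 1 was higher. These are 50% and 12.5%, against 6.69% and 2.89% of all genes considered. The 4 lower genes were all in the declining class. Of these, Dusp1, Dusp2 and Dusp8 passed the limit on cells only through the 1 h library, where they were high. Before thinning they had a UMI in at most 21.1% of cells at 4 h, so the count is partly set by the limit. Dusp2, a nuclear phosphatase of lymphoid and myeloid cells, had 2.91, 229 and 11.3 CPM at 0, 1 and 4 h, a log2 ratio of −4.33 (−4.52 to −4.15) from 1 h to 4 h. Dusp1, which acts on p38 and JNK, had 4.05, 105 and 13.7 CPM. Dusp5, which acts on nuclear ERK, had 2.60, 125 and 36.8 CPM and so remained well above its starting level, and Dusp8 had 0.628, 10.7 and 1.63 CPM. Dusp6, the cytoplasmic ERK phosphatase, ran opposite, with a dip from 21.6 to 8.49 CPM and then 31.9 CPM. Dusp16, at 8.74, 25.2 and 27.5 CPM, persisted.

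Most genes of feedback on NF-κB and on cytokine mRNA were neither lower nor higher at 4 h. Of 13 A20, TNIP, TRAF and SOCS genes considered, 2 were lower (15.4%), 2 higher (15.4%) and 9 neither. Of these 13, 1 declined and 2 persisted. Of 7 mRNA decay factors considered, 2 were lower (28.6%), none higher and 5 neither, and 1 declined and 1 persisted. Over all genes considered 6.69% were lower and 2.89% higher. Zfp36, which encodes the AU-rich element binding protein tristetraprolin, dropped from 448 to 70.6 CPM, a log2 ratio of −2.67 (−2.74 to −2.59). Zc3h12a, the endonuclease Regnase-1 that also degrades cytokine mRNA, stood at 9.31, 72.5 and 118 CPM and persisted. Tnfaip3, the ubiquitin-editing enzyme A20, had 3.94, 149 and 24.9 CPM. Its binding partner Tnip1 rose at both steps, with 28.6, 79.7 and 178 CPM, and Traf1 persisted with 23.3, 365 and 280 CPM. Of the 2 JAK-STAT inhibitors considered, Socs3 persisted (11.02, 135 and 111 CPM) and Cish was lower at 4 h (64.3 to 23.7 CPM).

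Within the NF-κB family, 10 genes were considered, 2 were lower and 2 higher (20% each, against 6.69% and 2.89% of all genes considered). The lower genes were 2 of the atypical nuclear IκB proteins, while another, Bcl3, had 7.10 and 9.03 CPM at 1 and 4 h. Nfkbiz, which promotes a subset of secondary genes, had 6.65, 411 and 128 CPM, and Nfkbid had 5.68, 95.9 and 21.2 CPM. The higher genes were the precursors of p50 and p52, with Nfkb1 at 44.1, 114 and 256 CPM and Nfkb2 at 16.2, 24.3 and 75.3 CPM. The classical inhibitor Nfkbia persisted at 233, 1522 and 944 CPM, as did the subunits Rel (33.4, 123 and 93.3 CPM) and Relb (20.0, 44.6 and 50.1 CPM). Rela, the p65 subunit, had 17.9, 44.7 and 35.7 CPM and was in no class.

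Cytokine genes moved the other way. Of 12 considered, 7 were higher at 4 h (58.3%, against 2.89% of all genes considered) and 1 was lower. The median log2 ratio was 2.87 (3.45 in Veh). Il1b, Il1a, Lif, Csf2 and Il27 passed the limit on cells only through the 4 h library, where they were high. Before thinning they had a UMI in at most 8.05% of cells at 1 h, so the count and median are partly set by the limit. Among 15 cytokines with at least 10 UMIs in each of the 4 libraries, 12 had a ratio above 0 in DHA, with a median of 1.47. Il1b, which encodes interleukin-1β, had no UMI among the 35027812 of DHA.LPS.0, and went from 3.08 to 485 CPM between the later hours, a log2 ratio of 7.30 (7.01 to 7.60). Before 4 h it was a gene of few cells, found in 1.64% of them at 1 h, where 91.7% of its thinned UMIs lay in the top 1% of cells. By 4 h it was found in 67.8% of cells, with a mean of 14.2 UMIs per positive cell. Il1a, the other interleukin-1 agonist, went from 0 UMIs to 5.41 and 139 CPM and reached 43.2% of cells. The 2 genes are neighbours on chromosome 2 of mm10, Il1a at 129299609 to 129310186 and Il1b at 129364569 to 129371164. Il1f6, which encodes IL-36α, and the receptor antagonist Il1rn lie apart from them on the same chromosome, from 24215417 to 24225701 and from 24336860 to 24351491. Il1f6 had 0.0285, 0.377 and 50.5 CPM, and Il1rn, already present at the start, had 80.2, 183 and 1082 CPM.

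The colony-stimulating factors Csf2 and Csf3 were higher at 4 h, while the interleukin-6 family was split. Csf3, the granulocyte factor G-CSF, had 3.83, 119 and 2305 CPM, and the share of cells with a UMI rose from 44.7% at 1 h to 99.1% at 4 h. Csf2, the GM-CSF gene itself, had 0.0571, 0.817 and 38.5 CPM and was found in 20.5% of cells at 4 h, so that its mRNA remained a minority feature. Lif went from 0.566 to 83.5 CPM and to 46.4% of cells. Osm, a relative of Lif, was the cytokine that declined, with 8.22, 109 and 24.4 CPM. Il27, a subunit of interleukin-27, started, with 1.37, 2.45 and 22.3 CPM. Il6 was below the limit on cells, with 1.88, 6.10 and 16.9 CPM in DHA, compared with 0.192, 0.994 and 36.6 CPM in Veh. Il10, Il12b and Ifnb1 had at most 0.499 CPM, and no UMI of Il12a was found.

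Tnf was the persisting cytokine. It had 143, 3482 and 1864 CPM at 0, 1 and 4 h, a log2 ratio of −0.90 (−0.92 to −0.88) from 1 h to 4 h, and a UMI in 99.9% of cells or more at both hours. Its mean per positive cell dropped from 69.4 to 36.8 UMIs, and so the change lay in the amount per cell. Cxcl2, a neutrophil chemoattractant, persisted at a higher level, with 235, 7011 and 11764 CPM.

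Of 8 chemokines considered, 7 were higher at 4 h (87.5%, against 2.89% of all genes considered) and none lower, and Cxcl2 was the exception. Among the 7, Ccl5 passed the limit on cells only through the 4 h library, so the count is partly set by the limit. Ccl2, the monocyte chemoattractant MCP-1, had 1186, 2718 and 12407 CPM, a log2 ratio of 2.19 (2.18 to 2.20). Ccl7 had 126, 301 and 1658 CPM. The chemokines Ccl3 and Ccl4 had 1292, 2565 and 10751 CPM and 1777, 3772 and 8159 CPM. Ccl9, a constitutive chemokine of macrophages, had 765, 928 and 3905 CPM. All 5 were thus at 126 CPM or more before LPS. Ccl2 and Ccl7 lie side by side on chromosome 11 (82035577 to 82037452 and 82045712 to 82047525). The RefSeq intervals of Ccl3 (83647843 to 83649378) and Ccl4 (83648624 to 83664683) overlap there, so the division of UMIs between these 2 is less certain. Cxcl16, a membrane-bound chemokine, had 8.48, 9.55 and 44.5 CPM. Cxcl10, an interferon-responsive chemokine, was below the limit on cells, with 20.0, 53.3 and 29.8 CPM.

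Ccl5, or RANTES, showed uneven expression before 4 h. It had 52.2, 63.9 and 274 CPM, but a UMI was present in only 5.91% of cells at 1 h with a mean of 24.7 UMIs per positive cell, and 67.6% of its UMIs lay in the top 1% of cells. At 4 h it was found in 38.0% of cells with a mean of 15.6 UMIs. In Veh the level before LPS was lower, at 1.97 CPM, with 8.18 and 190 CPM at 1 and 4 h. Lcn2, which encodes the siderophore-binding protein lipocalin-2, was similar, with 27.7, 39.7 and 442 CPM in DHA and 4.24, 8.67 and 284 CPM in Veh.

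Of 18 enzymes and effectors of inflammation considered, 10 were higher at 4 h (55.6%, against 2.89% of all genes considered) and none lower. The median log2 ratio was 1.32 (1.49 in Veh). Among the higher genes, Ptgs2, Saa3, Lcn2, Ptges and Cd40 passed the limit on cells only through the 4 h library. The count and median are therefore partly set by the limit. Acod1, the enzyme that makes itaconate, had 4.20, 36.4 and 827 CPM and spread from 24.3% to 97.98% of cells. Ptgs2, or COX-2, had 3.91, 18.8 and 373 CPM, and Ptges, which acts after it in prostaglandin E synthesis, had 1.97, 3.99 and 16.5 CPM. The noncoding Ptgs2os2, on the same chromosome 1 (150159043 to 150164948, with Ptgs2 at 150100031 to 150108234), started with 0.999, 1.70 and 25.1 CPM. Saa3, an acute-phase protein, had 1.86, 8.17 and 183 CPM, and Sod2, the mitochondrial superoxide dismutase, had 209, 314 and 1142 CPM. Slpi, a secreted protease inhibitor, had 142, 173 and 866 CPM. Nos2, the inducible nitric oxide synthase, had 2 UMIs at 1 h and 16.8 CPM at 4 h, a log2 ratio of 8.06 (6.20 to 11.12), but it reached 16.3% of cells and was therefore not considered. Nlrp3, the inflammasome sensor, persisted at 23.5, 539 and 472 CPM, and the adhesion molecule Icam1 at 39.3, 191 and 104 CPM.

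Hcar2, the niacin and β-hydroxybutyrate receptor, had 3.48, 1.45 and 31.3 CPM, so that a dip at 1 h preceded its rise. Rgs16, which shortens G-protein signals, did the same with 6.51, 3.24 and 43.2 CPM, as did Arhgef3 with 7.28, 3.21 and 31.1 CPM. Cebpd, a C/EBP factor that sustains the LPS response, stood level for the first hour (27.2 and 25.9 CPM) and then reached 176 CPM, in 83.8% of cells. Scimp (4.77, 4.59 and 34.8 CPM), a transmembrane adaptor of TLR signalling, Lix1 (4.54, 6.47 and 38.3 CPM) and Rmdn2 (2.03, 3.74 and 22.0 CPM) made up the rest of the 10 starting genes with the largest ratios. Mtmr7, a phosphoinositide phosphatase, rose at both steps, with 0.314, 0.974 and 12.7 CPM. Its first step rests on only 11 UMIs at 0 h and 31 UMIs at 1 h. Of 11 G-protein receptor and RGS genes considered, 5 were higher (45.45%) and 2 lower (18.2%), against 2.89% and 6.69% of all genes considered. The lower ones were Rasgef1b (73.6 to 23.9 CPM) and Gpr183 (37.4 to 5.58 CPM), an oxysterol receptor. Rgs16 passed the limit on cells only through the 4 h library and Gpr183 only through the 1 h library. Both counts are therefore partly set by the limit. Gpr84, a receptor of medium-chain fatty acids, had 21.6, 150 and 308 CPM.

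Of 16 genes of the TLR4 complex and its adaptors, 2 were higher (12.5%, against 2.89% of all genes considered) and none lower. Their median log2 ratio was 0.15. Cd14 had 631, 808 and 1742 CPM, and Ly96 had 14.5, 19.5 and 39.2 CPM, whereas Tlr4 itself had 22.1, 16.4 and 16.1 CPM. Myd88 had 21.1, 25.9 and 33.8 CPM, and Ticam1, which encodes TRIF, had 12.6, 12.7 and 13.4 CPM.

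Among the persisting genes with the largest gain over the starting level, the transcripts were diverse. Id3, an inhibitor of bHLH factors, had 0.457, 28.1 and 20.2 CPM. The host transcript of miR-155, Mir155hg, had 1.17, 27.1 and 13.8 CPM, and the mature microRNA was not measured. Pde4b, the phosphodiesterase that limits cAMP, had 3.17, 54.0 and 52.5 CPM, and Phlda1 had 9.79, 187 and 205 CPM. The predicted transcripts Gm12840 (0.828, 75.3 and 49.4 CPM) and Gm20186 (1.28, 23.1 and 16.0 CPM) completed the 10 with Cxcl2, Tnf, Nlrp3 and Traf1.

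**Figure D3:**
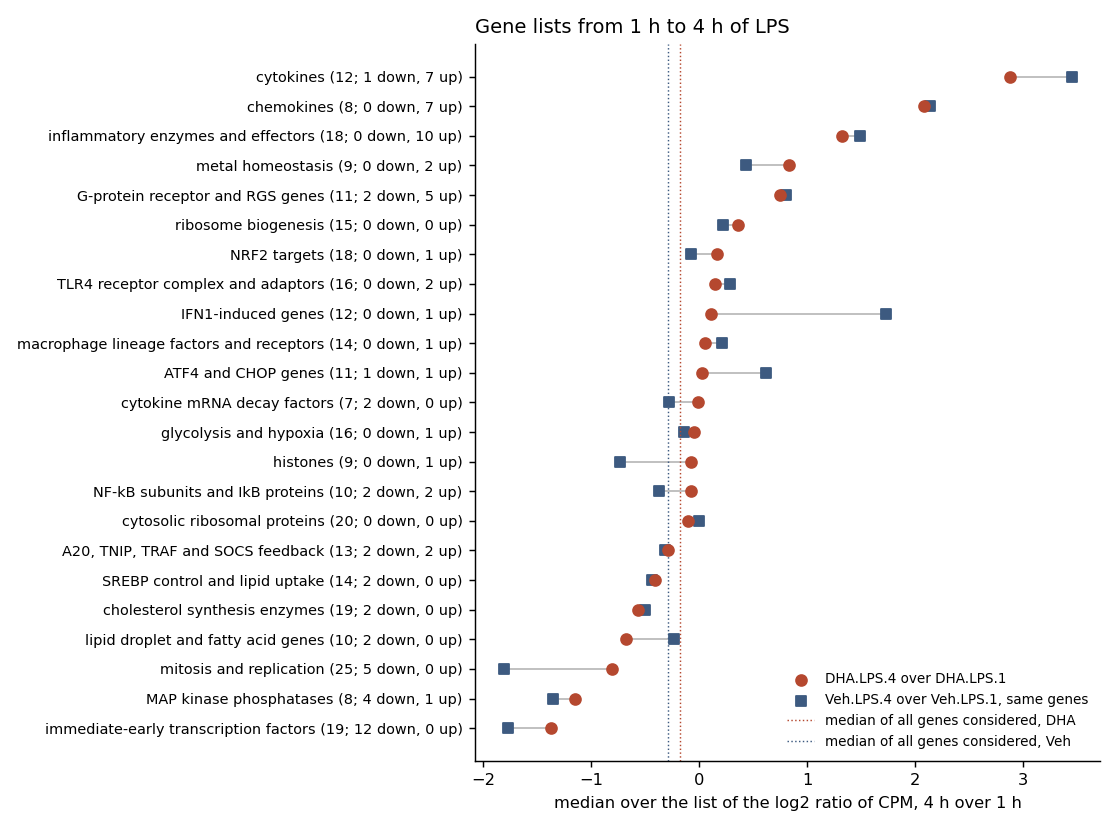
For 23 gene lists, the median log2 ratio of CPM from 1 h to 4 h in DHA (circles) and in Veh (squares) over the genes considered in DHA, whose number follows the list's name with the counts lower and higher in DHA. Cytokines and chemokines stand highest at 2.87 and 2.09 in DHA, immediate-early factors lowest at −1.37, and the gap between the treatments is widest for IFN1-induced genes (0.11 and 1.73).

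Of 31 listed genes induced by type I interferon (IFN1), 12 were considered, and 1, the RNA sensor Ifih1 (9.71 to 22.0 CPM), was higher at 4 h. That is 8.33% of the 12, against 2.89% of all genes considered. The median log2 ratio of the 12 was 0.11, against −0.18 over all genes considered, and 6 had ratios above 0. In Veh, on the same 12 genes, the median was 1.73 and 9 were higher. The list was widened to the 25 genes with at least 10 UMIs in each of the 4 libraries, after the values had been seen. Of these, 11 had a ratio above 0 in DHA (12 after TMM scaling) and 25 in Veh, and all 25 had a lower ratio in DHA than in Veh under both scalings. With 1 library per condition this difference between treatments could not be tested.

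For single IFN1 genes the levels of DHA and Veh differed before LPS was added. Ifit1, an inhibitor of viral RNA translation, had 8.11, 11.5 and 8.26 CPM in DHA at 0, 1 and 4 h and 0.435, 1.99 and 43.6 CPM in Veh. The log2 ratio from 1 h to 4 h was −0.47 in DHA and 4.45 in Veh, a difference of −4.93 (−5.26 to −4.59, a normal approximation on log counts). Isg15, a ubiquitin-like modifier, had 7.79, 11.3 and 21.4 CPM in DHA and 2.005, 2.65 and 47.4 CPM in Veh. Irf7, the factor that amplifies interferon expression, had 17.5, 13.8 and 11.3 CPM in DHA and 8.47, 4.92 and 32.6 CPM in Veh. Usp18, a negative regulator of the interferon receptor, had 5.31, 5.47 and 8.48 CPM and 1.90, 1.35 and 31.5 CPM. In the order of these values, DHA stood above Veh at 0 h and 1 h and below it at 4 h for each of the 4 genes. These are sums over all cells and not levels of the median cell.

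The IFN1 list was unevenly spread over the cells at 1 h. The 30 genes in the files summed to a median of 4 UMIs per thinned cell in DHA.LPS.1 and to a maximum of 228 UMIs, and 21.1% of them lay in the 8 cells with most. Cells with at least 20 such UMIs made up 4.28% (2.98 to 5.92) of DHA.LPS.1 and 8.09% (6.17 to 10.4) of DHA.LPS.4. In Veh they made up 0.618% (0.373 to 0.964) at 1 h and 22.4% (19.8 to 25.1) at 4 h, where the median cell had 10 UMIs. At 0 h the median cell had 4 UMIs of the list in both treatments. Cells with at least 20 then made up 3.7% (2.45 to 5.41) of DHA.LPS.0 and 1.21% (0.817 to 1.72) of Veh.LPS.0. The top 1% of cells held 19.0% of the list's UMIs in DHA.LPS.0 and 7.65% in Veh.LPS.0. The summed level of the list was 297, 323 and 350 CPM in DHA and 214, 161 and 747 CPM in Veh. Rsad2, the antiviral enzyme viperin, was the extreme case, with a UMI in 1.38% of DHA.LPS.1 cells, a mean of 14.6 UMIs in each and 98.1% of its UMIs in the top 1% of cells.

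**Figure D4:**
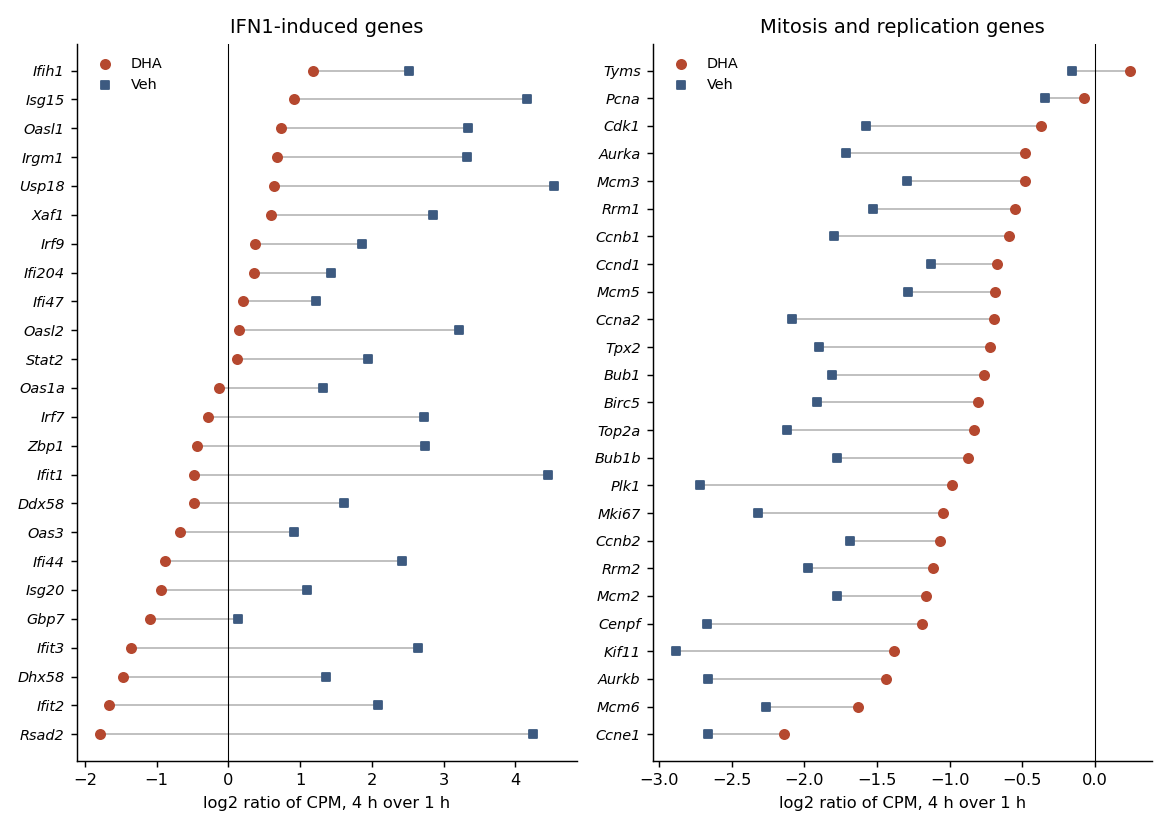
Log2 ratio of CPM from 1 h to 4 h for genes with at least 10 UMIs in all 4 libraries, DHA as circles and Veh as squares, for 24 of the 25 IFN1-induced genes (left) and 25 mitosis and replication genes (right). The 24 IFN1-induced genes shown lie lower in DHA than in Veh, and all 25 mitosis and replication genes lie higher.

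The cell cycle list differed between the treatments in the other direction. Of 25 genes of mitosis and replication, 5 were lower at 4 h in DHA, namely Aurkb, Cenpf, Kif11, Mcm6 and Ccne1, and none was higher. The lower share is 20%, against 6.69% of all genes considered. The median log2 ratio was −0.81 in DHA and −1.81 in Veh, where 20 of the same genes were lower. Mki67, the proliferation antigen, had 344, 316 and 153 CPM in DHA and 477, 486 and 97.3 CPM in Veh. Ccne1, the cyclin of S phase entry, had 31.5, 28.2 and 6.396 CPM, and Aurkb, a kinase of chromosome segregation, had 55.7, 42.7 and 15.8 CPM. Cells with no UMI of Mki67 or Top2a made up 24.8% (21.8 to 27.9) of DHA.LPS.1 and 41.3% (37.6 to 45.1) of DHA.LPS.4, against 14.0% and 51.0% in Veh. Within those cells alone the median of the list in DHA was −0.68, with 5 genes lower. Histone genes stood apart from the list, with a median log2 ratio of −0.08 in DHA and −0.73 in Veh. After TMM scaling these were 0.11 and −0.43. In DHA their drop came earlier than that of the mitosis and replication list, with median log2 ratios from 0 h to 1 h of −1.16 and −0.16. The first-hour drop was also seen in Veh. Summed histone levels at 0, 1 and 4 h were 2126, 1481 and 1401 CPM in DHA and 3016, 2026 and 1203 CPM in Veh. Hist1h1e, a linker histone, had 77.9 and 160 CPM at 1 and 4 h in DHA. Histone genes are close copies of each other, so their separate values are less certain.

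The 473 lower genes that had gained less than 2-fold at 1 h had a median of 19.8, 17.0 and 5.72 CPM at 0, 1 and 4 h. Klhl6, an adaptor of ubiquitin ligases known from B cells, had 39.1, 28.2 and 2.40 CPM, a log2 ratio of −3.55 (−3.98 to −3.15). The phosphatidylinositol transfer protein Pitpnc1 (9.78 to 1.18 CPM), the kinesin Kifc3 (14.7 to 1.77 CPM), the palmitoyltransferase Zdhhc14 (8.45 to 0.816 CPM) and 6430548M08Rik (8.64 to 1.04 CPM) had ratios nearly as large. Bmyc (26.5 to 3.45 CPM), Gnb5 (14.4 to 1.91 CPM), the histone deacetylase Hdac9 (16.0 to 2.18 CPM) and the inhibitory receptor VISTA (Vsir, 21.4 to 2.95 CPM) followed. Tfeb, the master factor of lysosome genes, had 7.83 and 1.09 CPM. The high-affinity IgG receptor Fcgr1 also belonged here. For these 10 top genes the ratios in Veh, from −3.39 to −1.97, were of similar size.

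Of 19 cholesterol synthesis enzymes considered, 2 were lower (10.5%, against 6.69% of all genes considered). The median log2 ratio was −0.57 in DHA and −0.50 in Veh. Ratios below 0 were found for 18 in CPM and 17 after TMM scaling, against 5117 and 3812 of all 7847 genes considered. Hmgcs1, at the entry of the pathway, was in the declining class with 68.0, 153 and 65.9 CPM, and Dhcr7, near its end, had 19.3, 14.4 and 4.04 CPM. Insig1, which holds SREBP in the endoplasmic reticulum, missed the limit after TMM scaling, with 25.5, 88.7 and 39.1 CPM. Scd2, a stearoyl-CoA desaturase, had 167, 101 and 29.3 CPM in DHA and 369, 275 and 199 CPM in Veh. Its log2 ratio was −1.79 in DHA and −0.46 in Veh. Lpl, the lipoprotein lipase, had 1921, 1478 and 781 CPM in DHA and 1758, 1504 and 1633 CPM in Veh. Plin2, the coat protein of lipid droplets, had 419, 530 and 728 CPM in DHA, where the Veh values were 68.0, 70.1 and 84.2 CPM, and Hilpda, an inhibitor of droplet lipolysis, persisted at 30.3, 203 and 236 CPM. Cpt1a, which admits fatty acids to mitochondria, had 15.7 and 6.85 CPM, and the sterol exporter Abcg1 had 8.86 and 2.90 CPM.

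Of 18 NRF2 targets considered, 1 was higher (5.56%, against 2.89% of all genes considered), the cystine transporter Slc7a11 (39.2, 108 and 298 CPM). Sqstm1, Txnrd1 and Srxn1 persisted, Sqstm1 with 286, 887 and 1345 CPM, and Hmox1, heme oxygenase, had 172, 275 and 304 CPM, more than the 71.0, 108 and 118 CPM of Veh. Of 9 metal genes, Mt2, a metallothionein, had 268, 515 and 1231 CPM and the iron importer Slc11a2 had 21.4, 24.2 and 81.5 CPM, and both were higher. These were 22.2% of the 9. Slc40a1, the iron exporter ferroportin, had 38.9, 27.8 and 13.7 CPM, a log2 ratio of −1.02 that became −0.83 after TMM scaling. Slc39a10, a zinc importer, had 31.6 and 26.04 CPM at 1 and 4 h in DHA and 89.3 and 27.6 CPM in Veh. Ppp1r15a, or GADD34, the phosphatase subunit that ends eIF2α phosphorylation, declined (41.3, 324 and 71.4 CPM), and Chac1 was higher (5.31 to 19.4 CPM), out of 11 ATF4 and CHOP genes. Each is 9.09% of the 11, against 6.69% lower and 2.89% higher over all genes considered.

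None of 20 ribosomal protein genes or 15 ribosome biogenesis genes considered passed the limit, with median log2 ratios of −0.10 and 0.36. Of 16 glycolysis genes, 1 was higher (6.25%, against 2.89% of all genes considered), Hk2 (32.0 to 80.8 CPM). The sign of the ribosomal protein median flipped to 0.09 after TMM scaling. Of 14 lineage factors and receptors, Cebpd was higher (7.14%, against 2.89% of all genes considered) and none was lower. Spi1, which encodes PU.1, had 171, 175 and 271 CPM, and the receptor Csf1r had 62.2, 61.9 and 31.3 CPM.

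The classes were also followed in single cells. With each cell thinned to 20000 UMIs, the median cell held 14 of the 52 declining genes at 0 h, 35 at 1 h and 19 at 4 h. The range from the 5th to the 95th percentile was 26 to 41 genes at 1 h and 14 to 26 genes at 4 h, and 5.20% (3.67 to 7.13) of the 692 cells at 4 h lay within the former. For the 30 genes that rose at both steps the median cell held 8, 12 and 21, and 5.92% (4.28 to 7.95) of cells at 4 h lay within the 1 h range of 8 to 16. For the 159 starting genes it held 62, 66 and 105, and 1.88% (1.00 to 3.19) of cells at 4 h lay within the 1 h range. For the 77 persisting genes it held 29, 50 and 51, and 92.8% (90.6 to 94.6) of cells at 4 h lay within the range of 1 h. These classes were picked from the sums over the same cells, so the separation of the hours is a description. Few cells at 4 h thus held as many declining genes, or as few starting genes, as the cells of 1 h.

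**Figure D5:**
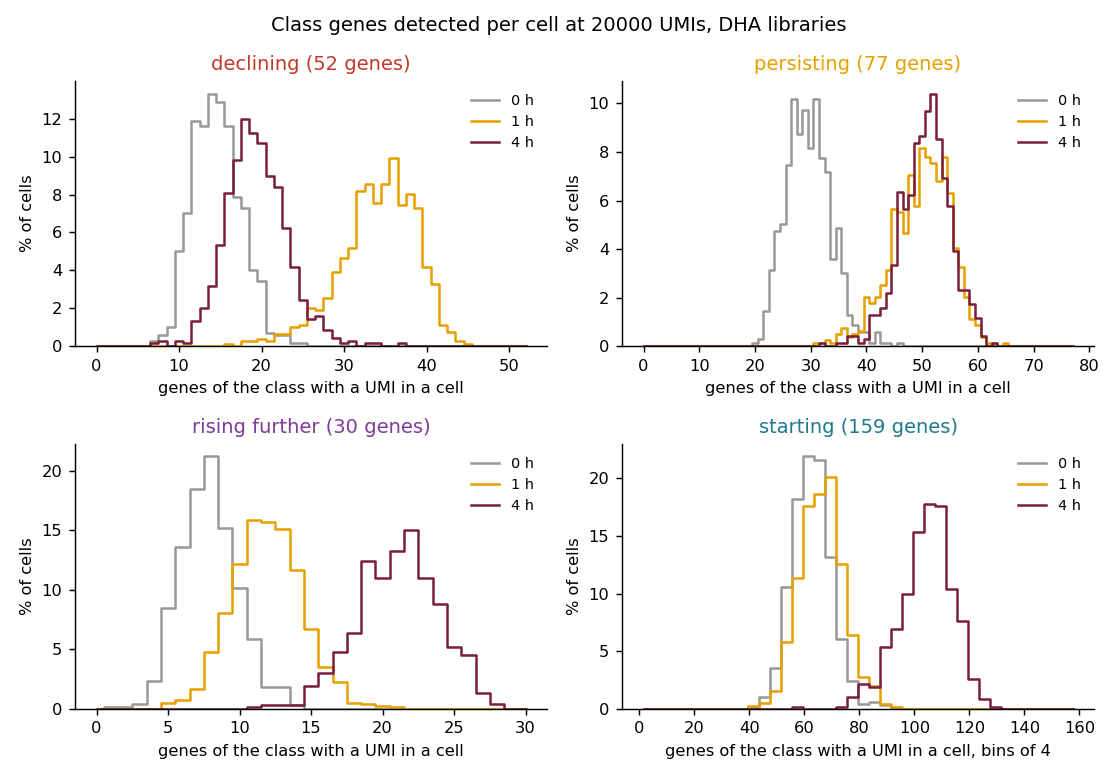
Share of cells (vertical axis, %) by the number of genes of a class with a UMI in the cell (horizontal axis), for the DHA libraries at 0, 1 and 4 h, with each cell thinned to 20000 UMIs. The median cell holds 35 declining genes at 1 h and 19 at 4 h, while the curves of persisting genes at 1 and 4 h overlap around 50 and 51.

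Side by side with Veh, whose libraries are separate from those of DHA, the classes overlapped to different degrees. Of the 52 declining genes 40 were declining in Veh by the same rule, which is 76.9% of the genes of DHA and 88.9% of the 45 of Veh. The shares were 64.9% and 72.5% for persisting genes (50 shared), 76.7% and 50% for genes rising at both steps (23 shared) and 79.2% and 58.9% for starting genes (126 shared). They were 71.9% and 52.4% for lower genes that were not declining (340 shared), and 44.7% and 22.4% for higher genes outside the starting and rising classes (17 shared). A gene in too few Veh cells could not be shared. Of the 473 lower genes that were not declining, 398 were considered in Veh, and of the 52 declining genes 50. All genes of the other classes were considered in Veh. No gene counted as lower in 1 treatment was counted as higher in the other. Among 8199 genes considered in either treatment with at least 10 UMIs in each library, the log2 ratio in DHA was 1 or more below that of Veh for 74 genes (0.902%) and 1 or more above it for 90 genes (1.10%), under both scalings. The 10 genes farthest below were Ifit1, Rtp4, Usp18, Il6, Isg15, Irf7, Dhx58, Irgm1, Oasl1 and Slfn5, chosen after the values were seen. Most are IFN1-induced. A gene could enter this comparison through Veh alone, as Il6 and Dhx58 did, which were in too few DHA cells. Of the IFN1 list, 12 genes were considered in DHA and 17 in Veh, so this ranking partly follows from the rule of entry. The 10 farthest above included Aspm, Ttk, Sgo2a, Plk1, Kif14, Kif2c and Prc1, genes of mitosis, with a difference of 1.89 (1.65 to 2.13) for Aspm.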

How the data were processed

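Single-cell RNA-seq (Chromium 3′ chemistry) of FLMs gave 1 library per condition. The authors deposited raw counts of UMIs per gene and barcode from Cell Ranger, version 3.1.0 per the file headers, on mm10, without normalization or the later filter on cells. The paper's methods name another Cell Ranger version. Barcodes were filtered as given in the report, summed per gene over 31053 genes, scaled to CPM and with TMM factors (edgeR 4.0.16, R 4.3.3), and compared by size, with a library at 0 UMIs read as 3 UMIs. Ratios carry 95% exact binomial intervals. PCR duplicates are removed by UMIs, and intervals and floors cover counting error only. Doublets were not removed beyond these limits. Cells were thinned to 20000 UMIs for shares of cells. The calls by fold and the intervals were tested on simulated counts, without TMM factors, the limit on cells or differences between cells. Positions are RefSeq's (GRCm38.p6), matched by symbol for 7804 of 7847 genes. Symbols with more than 1 gene ID were left out of lists, and Cxcl11, Mx2 and Aldoa were not used here. Named genes were the 10 with the largest ratio in each class (gain over 0 h for persisting genes) and the members of 23 gene lists. Members, lists and rules were chosen with earlier results of these data known. A promoter motif search was planned and not run, since no sequence was used here. Alternatives changed scaling, limits on cells and genes, fold, depth, mitochondrial genes and cycling cells. Some listed genes are not reported by name here.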

Additional observations from a re-analysis of the deposited data

Results flagged for a closer look

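Among IFN1-induced genes, 4 with at least 10 UMIs in each library moved 2-fold or more in opposite directions in the 2 treatments from 1 h to 4 h, under both scalings. The log2 ratio of Rsad2 was −1.79 in DHA and 4.25 in Veh, with 9.40 and 2.72 CPM at 1 h and 4 h in DHA and 0.402 and 7.65 CPM in Veh. Ifit2 had −1.67 in DHA and 2.09 in Veh, Dhx58 −1.47 and 1.37, and Ifit3, whose near-identical copy Ifit3b can share its reads, −1.36 and 2.64. None of the 4 was in 25% of the cells of DHA.LPS.1 or DHA.LPS.4. The level of Rsad2 in DHA.LPS.1 lay almost wholly in a few cells, as given above, so its drop was not a change across most cells. With 1 library per condition the difference between treatments was not tested.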

How the results depend on the processing

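No gene counted as lower was counted as higher under any of the 11 alternatives, or the reverse. For the alternatives of scaling, of fold and of the limit on cells per gene this outcome was fixed, since they reuse the same sums. Alternatives that changed the cells or their depth could have differed. None of the 101 listed or named genes that passed the limit changed sign. Of those that did not pass, TMM scaling alone turned the sign of 36. Leaving out cells with Mki67 or Top2a turned 29, and keeping all barcodes turned 18. The counts depended on the limits. With a UMI required in 50% of cells, 236 genes were lower and 171 higher (42.0% upward). With no limit on cells but 10 UMIs in both hours together, 1545 were lower and 588 higher, with 268 declining, 175 persisting, 87 rising and 308 starting genes. At 1.5-fold, 1234 were lower and 547 higher, with 94, 122, 99 and 339 in the classes. TMM scaling alone gave 253 starting genes. With all barcodes kept, 130 genes were lower, 144 higher and 98 starting among 3936 considered, and 115 of the 525 lower and 133 of the 227 higher genes remained. With cells thinned to 20000 UMIs, 321 were lower and 206 higher (39.1% upward). The limit of 50%, all barcodes and thinning left fewer genes to consider, and other causes were not tested. Without cells that held Mki67 or Top2a, 514 genes were lower and 202 higher, 178 of the higher ones remained, and 11 of the 101 fell under 2-fold. No paired analysis was possible because each condition was 1 library, and no library could be left out. Depth limits low genes, since 3 UMIs in DHA.LPS.4 are the floor for a gene with none.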
